A study of Arabidopsis thaliana with 24 samples.

Results

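The small heat shock proteins described here were 10 genes of *Arabidopsis thaliana*, chosen by locus and name out of the 33977 gene identifiers in the deposited counts. They were *HSP17.4* (AT3G46230), *HSP17.6C* (AT1G53540), *HSP18.2* (AT5G59720) and AT2G29500 of cytosolic class I, *HSP17.6II* (AT5G12020) and *HSP17.6A* (AT5G12030) of cytosolic class II, *HSP23.5* (AT5G51440) and *HSP23.6* (AT4G25200) of the mitochondrion, *HSP22* (AT4G10250) of the endoplasmic reticulum and *HSP21* (AT4G27670) of the chloroplast. The study asked how shoot and root respond to high ambient temperature and what the light signalling factor HY5 contributes to this. It comprised 24 libraries of 3′Tag-Seq, a method that reads tags close to transcript 3′ ends, so that a long gene gains no counts from its length. There were 8 groups of 3 biological replicates, namely shoots and roots of Col-0, the WT and reference accession, and of *hy5-215*, a mutant allele of *HY5* in the Col-0 background, each kept at 22 °C or moved to 28 °C for 4 h under continuous white light. All seedlings were grown on sucrose-free medium at 22 °C beforehand, for 5 days by the labels and for longer by the study's text. The labels call the shoot hypocotyl, whereas the study's methods call it shoot, meaning hypocotyl with cotyledons. Each tissue sample thus mixes cell types, and a lower share of a cell type cannot be told apart from less RNA per cell.

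Small heat shock proteins share the alpha-crystallin domain and form oligomers that bind unfolding proteins without using ATP. Larger chaperones such as HSP70 and HSP101 then refold or disaggregate the bound proteins. Plants have separate classes of these proteins in the cytosol, mitochondrion, chloroplast and endoplasmic reticulum, and heat shock transcription factors bind a repeated element upstream of many of their genes.

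The libraries held 1212281 to 3781032 counts, and levels are given as CPM, the counts divided by the library size after TMM scaling over the 24 libraries. A single count was worth 0.259 to 0.671 CPM. The Col-0 root at 22 °C was the shallowest group, with 1212281 to 1828946 counts. As a check of the labels, *HY5* itself had 97, 99 and 94 counts in the Col-0 root at 22 °C against 35, 63 and 30 in *hy5-215* (log2 fold change −1.92, edgeR adjusted p = 3.75e-07). At 28 °C the root counts were 153, 168 and 142 against 39, 39 and 21 (log2 fold change −2.35, edgeR adjusted p = 3.95e-10). In the shoot *HY5* differed less, by −0.53 at 22 °C (edgeR adjusted p = 0.0513) and −0.57 at 28 °C (edgeR adjusted p = 0.213), and neither passed. The check therefore does not settle the genotype labels of the shoot, which rest on the sample titles. Where the lesion of *hy5-215* lies relative to the counted 3′ fragments is not given in the sources used here. Shoot marker genes of photosynthesis summed to 51846 to 87196 CPM in shoot libraries and to 491 to 1209 CPM in root libraries, with none of the 10 at 0 in the root. Root marker genes summed to 186 to 414 CPM in the root and to 37.4 to 76.1 CPM in the shoot, where 1 of the 10 was at 0. Within the Col-0 root the shoot markers summed to 1142 ± 109 CPM at 22 °C and 672 ± 102 CPM at 28 °C, and in *hy5-215* to 596 ± 57.5 and 706 ± 215 CPM (SD, n = 3). Their part in the root results below was not tested.

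The upstream sequences were examined first, because heat shock factors act there and because HY5 binds motifs with an ACGT core. The stretch of 250 bases before each annotated transcript start was taken from RefSeq's TAIR10.1 annotation, where all 10 genes matched. The heat shock element was searched as alternating GAA and TTC units 2 bases apart. Its form of 2 units, GAANNTTC or TTCNNGAA, was present in 5 of the 10, against 16.2% of 27443 promoters of the same length. The form of 3 units, GAANNTTCNNGAA or TTCNNGAANNTTC, was present in 2 of the 10, against 0.39% of all promoters. Both forms were searched on both strands, and every match of 3 units also holds matches of 2. The core ACGT was found in 6 of 10, against 44.1% of all promoters.

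4 promoters are printed with the heat shock element in capitals, because they span the range from a pair of elements of 3 units to no match. *HSP17.4* (chr3:16984842-16985091, minus strand) held elements of 3 units at −125 to −113 and at −44 to −32 from the transcript start. Its window was taken from the annotated mRNA start and overlaps the span annotated for the gene, which reaches 16984867. *HSP17.6C* (chr1:19980049-19980298, plus strand) held one at −53 to −41. *HSP23.5* (chr5:20890913-20891162, plus strand) held an element of 2 units at −94 to −87. *HSP18.2* (chr5:24062073-24062322, plus strand) held none and had no ACGT core.
HSP17.4: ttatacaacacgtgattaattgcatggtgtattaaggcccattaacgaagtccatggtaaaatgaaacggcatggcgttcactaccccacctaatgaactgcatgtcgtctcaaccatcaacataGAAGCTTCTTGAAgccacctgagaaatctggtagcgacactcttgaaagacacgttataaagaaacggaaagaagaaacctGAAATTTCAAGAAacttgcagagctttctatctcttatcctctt
HSP17.6C: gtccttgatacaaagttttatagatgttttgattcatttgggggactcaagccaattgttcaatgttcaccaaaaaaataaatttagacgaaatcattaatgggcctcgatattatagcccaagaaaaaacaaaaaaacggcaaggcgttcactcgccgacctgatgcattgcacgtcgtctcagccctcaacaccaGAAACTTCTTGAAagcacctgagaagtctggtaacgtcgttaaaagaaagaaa
HSP23.5: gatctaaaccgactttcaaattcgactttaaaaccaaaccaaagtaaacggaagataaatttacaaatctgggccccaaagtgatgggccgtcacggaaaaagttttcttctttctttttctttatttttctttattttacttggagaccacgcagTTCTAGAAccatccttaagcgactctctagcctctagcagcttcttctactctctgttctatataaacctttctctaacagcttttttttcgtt
HSP18.2: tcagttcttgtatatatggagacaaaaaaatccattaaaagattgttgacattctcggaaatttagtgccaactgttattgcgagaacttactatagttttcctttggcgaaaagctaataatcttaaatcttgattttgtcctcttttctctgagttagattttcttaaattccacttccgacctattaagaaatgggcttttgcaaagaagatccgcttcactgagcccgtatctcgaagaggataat

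Of the others, *HSP17.6A* held an element of 2 units at −22 to −15 and *HSP21* at −100 to −93, whereas *HSP17.6II*, *HSP22*, *HSP23.6* and AT2G29500 held neither form within the 250 bases. A match is a match of letters only, and a window without one says nothing of the factor.

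**Figure D1:**
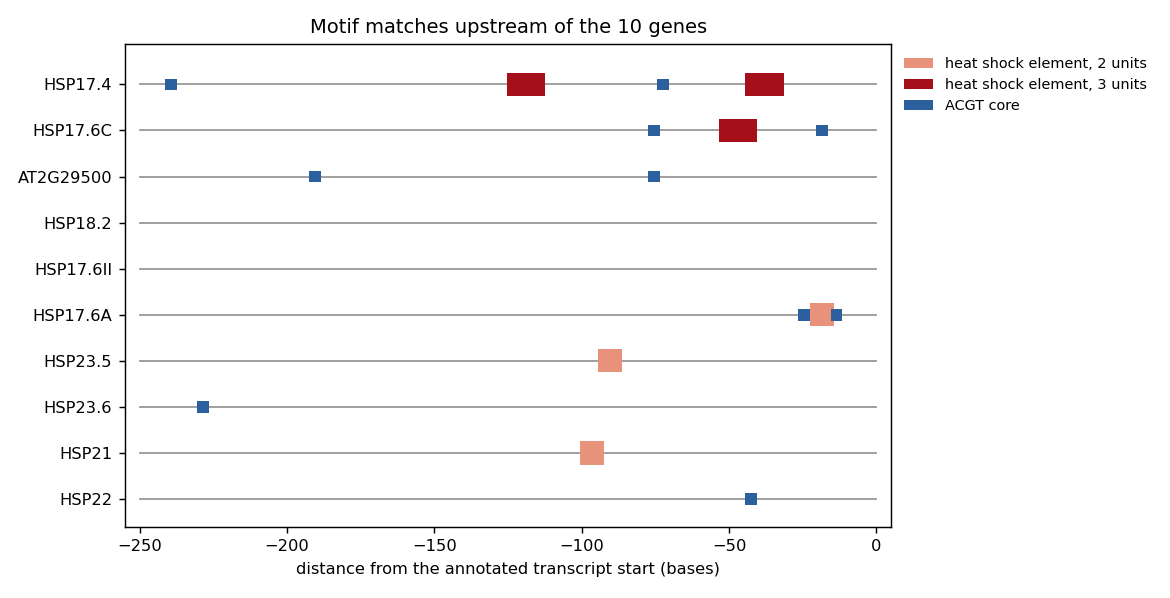
Matches of the heat shock element and of the ACGT core within the 250 bases upstream of the 10 genes, with the distance from the annotated transcript start in bases on the x axis and a row for each gene. Elements of 3 units appear in the rows of *HSP17.4* and *HSP17.6C* only, and the rows of *HSP18.2* and *HSP17.6II* carry no match.

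The 8 groups differed mainly by temperature. Summed over the 10 genes, the level was 22.2 ± 1.497 CPM in the Col-0 shoot at 22 °C and 80.9 ± 15.3 CPM at 28 °C (SD, n = 3), a ratio of 3.64. The *hy5-215* shoot went from 20.7 ± 3.32 to 77.4 ± 7.17 CPM, a ratio of 3.75. In the root the ratios were 7.27 in Col-0 (14.3 ± 4.67 to 104 ± 45.5 CPM) and 6.61 in *hy5-215* (24.9 ± 3.92 to 164 ± 9.83 CPM). In each tissue and genotype every library at 28 °C lay above every library at 22 °C. The Col-0 root at 28 °C was the most variable group, at 62.7, 96.3 and 153 CPM in replicates 1, 2 and 3. Its replicate 3 was the highest of the group for all 8 genes that had a level (the genes other than *HSP21* and *HSP22*). Without it the group averaged 79.5 CPM, no longer above the Col-0 shoot at 28 °C.

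The classes contributed unequally. Class I summed to 12.2 CPM at 22 °C and 41.1 CPM at 28 °C in the Col-0 shoot, 12.8 and 40.0 CPM in the *hy5-215* shoot, 10.4 and 41.2 CPM in the Col-0 root, and 17.5 and 83.1 CPM in the *hy5-215* root. The mitochondrial pair went from 9.12 to 29.7 CPM, from 5.01 to 25.0 CPM, from 3.91 to 50.5 CPM and from 3.90 to 64.2 CPM in the same order. Class II stayed the smaller part, reaching 9.17, 11.96, 11.8 and 16.9 CPM at 28 °C. At 28 °C the mitochondrial sum was 35.8 CPM or more in every root library and 35.0 CPM or less in every shoot library. The class I sum was separate between the tissues at 28 °C in *hy5-215* (33.1 to 48.7 CPM in the shoot, 72.5 to 92.8 CPM in the root) and overlapped in Col-0 (36.5 to 43.6 CPM in the shoot, 23.0 to 64.2 CPM in the root).

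**Figure D2:**
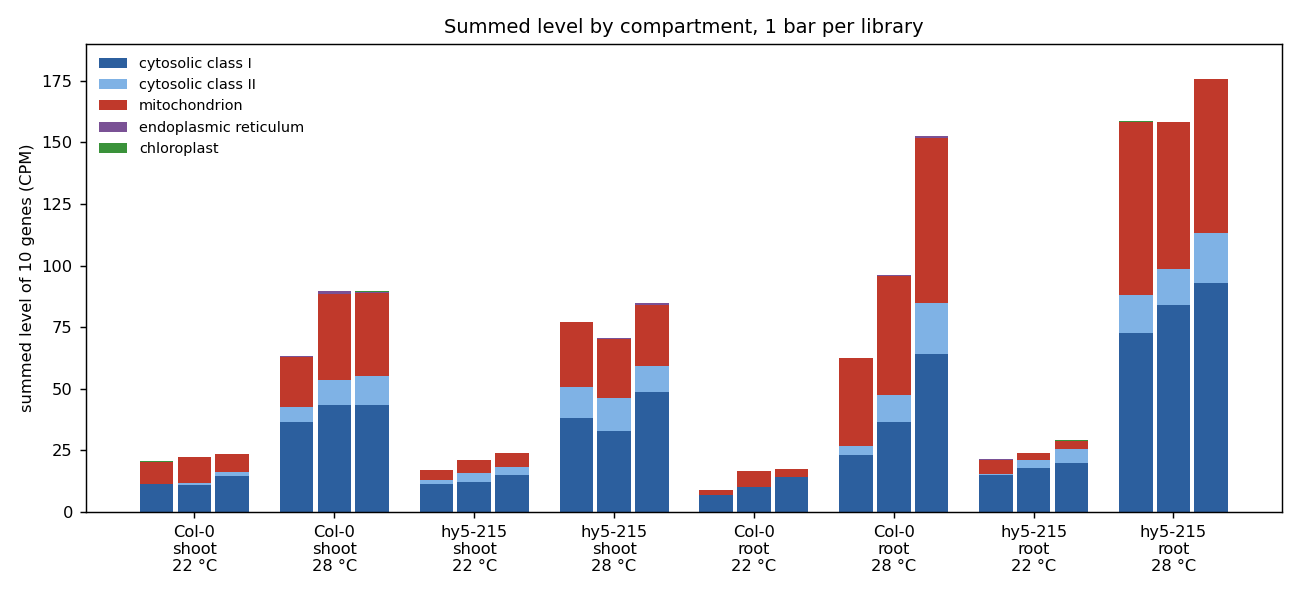
Summed level of the 10 genes in CPM on the y axis, with a bar for each library and colours for the compartment of the protein. At 28 °C the Col-0 root bars reach 62.7, 96.3 and 153 CPM, while the *hy5-215* root averages 164 CPM with a narrow spread.

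*HSP17.4* encodes a class I protein of the cytosol from a single exon on chromosome 3 (16984118 to 16984867, minus strand, TAIR10.1), and its promoter held both elements of 3 units printed above. In the Col-0 shoot it had 2, 1 and 1 counts at 22 °C and 34, 44 and 39 at 28 °C. The *hy5-215* shoot had 3, 2 and 5 counts at 22 °C and 27, 26 and 26 at 28 °C. No library at 22 °C overlapped with those at 28 °C. The Col-0 root gave 0, 0 and 1 counts at 22 °C and 14, 22 and 38 at 28 °C. In the *hy5-215* root the counts were 1, 7 and 9 at 22 °C and 56, 49 and 44 at 28 °C. Again the groups were separate, and replicate 3 was the highest of the Col-0 root at 28 °C. A gene is called a DEG here when its edgeR adjusted p over all genes tested was at most 0.05 and its change at least 2-fold. *HSP17.4* was a DEG in all 4 comparisons of 28 °C with 22 °C. The change in *hy5-215* was 2.97 on the log2 scale in the shoot (SE 0.42, edgeR adjusted p = 1.71e-05) and 2.96 in the root (SE 0.38, edgeR adjusted p = 2.03e-06). Both Col-0 groups at 22 °C had 3 counts or fewer in every library, a level treated as the floor, against which no fitted fold is given. For them the ratio of pooled levels was 30.2 in the shoot (95% counting interval 11.5 to 113, edgeR adjusted p = 4.92e-09) and 44.1 in the root (95% counting interval 7.67 to 1764, edgeR adjusted p = 0.000796). Such intervals cover counting error only. The highest mean was that of the Col-0 shoot at 28 °C, at 17.1 ± 1.57 CPM, whose libraries overlapped with the *hy5-215* root at 14.7 ± 2.05 CPM. The *hy5-215* shoot at 11.1 ± 1.56 CPM and the Col-0 root at 7.81 ± 3.81 CPM followed and also overlapped with each other (SD, n = 3). The locus overlaps on the opposite strand with AT3G46220, which had 22 to 81 counts per library, among them 29, 26 and 31 in the Col-0 shoot at 22 °C and 34, 29 and 33 at 28 °C. Whether counting used the strand is not stated, so reads of that pair cannot be told apart with certainty.

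*HSP17.6C*, also of class I, lies on chromosome 1 (19980299 to 19981199, plus strand, 1 exon) and held the other element of 3 units. Shoot counts in Col-0 were 1, 0 and 0 at 22 °C and 4, 10 and 12 at 28 °C. In *hy5-215* shoots they were 1, 2 and 1 at 22 °C and 10, 11 and 13 at 28 °C. All shoot libraries at 28 °C lay above all at 22 °C, at levels too low to enter the filtered test. The Col-0 root had 0, 0 and 1 counts at 22 °C and 12, 16 and 29 at 28 °C. The *hy5-215* root had 2, 1 and 7 at 22 °C and 33, 40 and 35 at 28 °C. Root libraries did not overlap between temperatures either. In the *hy5-215* root *HSP17.6C* rose by 3.23 on the log2 scale (SE 0.47, edgeR adjusted p = 1.71e-05), and without replicate 3 at 22 °C, the library with 7 counts, the value was 4.37. In the Col-0 root it was a DEG as well (edgeR adjusted p = 0.00219), with a ratio of pooled levels of 34.0 (95% counting interval 5.85 to 1364). It entered that test only while replicates 2 and 3 at 28 °C were both included. In the shoot the ratios were 26.8 in Col-0 (95% counting interval 4.40 to 1099) and 8.66 in *hy5-215* (95% counting interval 3.09 to 33.6). Its level at 28 °C was 10.8 ± 2.42 CPM in the *hy5-215* root, 6.02 ± 2.77 CPM in the Col-0 root, 4.82 ± 1.25 CPM in the *hy5-215* shoot and 3.77 ± 1.73 CPM in the Col-0 shoot (SD, n = 3), and each of these groups overlapped with the next.

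AT2G29500, a further class I gene (chromosome 2, 12633065 to 12634120, minus strand, 1 exon), was measured at both temperatures. In Col-0 shoots it had 20, 20 and 33 counts at 22 °C and 38, 47 and 45 at 28 °C. In *hy5-215* shoots it had 13, 23 and 23 counts at 22 °C and 47, 45 and 58 at 28 °C. The counts were separate between temperatures in both, but close in Col-0. The root of Col-0 had 8, 15 and 16 counts at 22 °C and 35, 73 and 116 at 28 °C. The root of *hy5-215* had 29, 36 and 24 counts at 22 °C and 158, 217 and 154 at 28 °C. The *hy5-215* root at 28 °C stood above every other group, at 52.0 ± 9.61 CPM (SD, n = 3) with no overlap with the next, the Col-0 root at 23.58 ± 12.6 CPM. AT2G29500 rose by 2.41 on the log2 scale in the *hy5-215* root (SE 0.20, edgeR adjusted p = 1.16e-10), by 1.39 in the *hy5-215* shoot (SE 0.26, edgeR adjusted p = 0.000401) and by 1.74 in the Col-0 root (SE 0.39, edgeR adjusted p = 0.0102). The Col-0 root call was lost without replicate 1 at 22 °C (1.39, adjusted p = 0.0541), without replicate 2 at 22 °C (1.80, adjusted p = 0.0778) and without replicate 3 at 28 °C (1.28, adjusted p = 0.0563). In the Col-0 shoot the change of 0.87 (SE 0.24, edgeR adjusted p = 0.00752) passed the adjusted p but not the 2-fold cutoff. Without replicate 3 of the Col-0 shoot at 22 °C it was 1.14 (adjusted p = 0.00351) and a DEG.

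*HSP18.2*, the remaining class I gene (chromosome 5, 24062323 to 24063300, plus strand, 1 exon), had no motif match in its printed promoter. Its shoot counts in Col-0 were 3, 4 and 1 at 22 °C and 3, 1 and 4 at 28 °C. In *hy5-215* shoots it had 6, 9 and 6 counts at 22 °C and 7, 9 and 4 at 28 °C. In both shoots the temperatures overlapped. Col-0 roots had 7, 5 and 3 counts at 22 °C and 9, 7 and 20 at 28 °C. Roots of *hy5-215* had 9, 20 and 17 counts at 22 °C and 32, 18 and 10 at 28 °C. The root temperatures overlapped as well. The change in the *hy5-215* root was 0.20 on the log2 scale (SE 0.38, edgeR adjusted p = 0.838) and −0.21 without replicate 1 at 28 °C. The ratio of pooled levels was 1.43 in the Col-0 root (95% counting interval 0.763 to 2.81) and 1.03 in the Col-0 shoot (95% counting interval 0.337 to 3.15). A change within these intervals was not detectable at this depth.

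The class II genes *HSP17.6II* (chromosome 5, 3882231 to 3883111) and *HSP17.6A* (chromosome 5, 3883957 to 3884838) are neighbours on the minus strand, each with 1 exon. *HSP17.6II* had 0, 1 and 2 counts in the Col-0 shoot at 22 °C and 7, 7 and 9 at 28 °C. Its *hy5-215* shoot counts were 1, 3 and 2 at 22 °C and 15, 10 and 8 at 28 °C. Both shoots thus separated by temperature, at the floor at 22 °C. No count of *HSP17.6II* was seen in any Col-0 root library at 22 °C, against 7, 27 and 53 at 28 °C. In the *hy5-215* root it had 0, 4 and 3 counts at 22 °C and 41, 38 and 36 at 28 °C. *HSP17.6II* rose by 3.83 on the log2 scale in the *hy5-215* root (SE 0.48, edgeR adjusted p = 1.42e-06). In the Col-0 root its level was at least 5.57-fold higher at 28 °C, counted against 3 counts per library, the floor used wherever a group was at 0, and at least 3.25-fold without replicate 3 at 28 °C. The shoot ratios were 7.90 in Col-0 (95% counting interval 2.39 to 41.1) and 5.60 in *hy5-215* (95% counting interval 2.32 to 16.4).

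*HSP17.6A* had more counts than its neighbour in every *hy5-215* library at 22 °C. Its counts in the Col-0 shoot were 0, 1 and 1 at 22 °C and 6, 16 and 18 at 28 °C. The *hy5-215* shoot already had 2, 8 and 6 counts at 22 °C, against 14, 26 and 14 at 28 °C. Shoot libraries at 28 °C were above those at 22 °C in both genotypes. Root counts in Col-0 were 0 in all 3 libraries at 22 °C and 4, 8 and 13 at 28 °C. The *hy5-215* root had 1, 8 and 14 counts at 22 °C and 19, 18 and 18 at 28 °C. In CPM the *hy5-215* root groups overlapped at one library, replicate 3 at 22 °C with 14 counts, the highest of its group. *HSP17.6A* rose by 1.76 on the log2 scale in the *hy5-215* shoot (SE 0.42, edgeR adjusted p = 0.00443), a call lost without replicate 2 at 28 °C (1.52, adjusted p = 0.0567). Its change in the *hy5-215* root, 1.10 (SE 0.48, edgeR adjusted p = 0.188), did not pass, but it was 1.92 (adjusted p = 0.0250) without replicate 3 at 22 °C. In Col-0 the shoot ratio was 20.6 (95% counting interval 5.35 to 176) and the root was at least 1.61-fold higher at 28 °C. The 3′ ends of the class II pair resemble each other, with 142 aligned bases at 88.7% identity within the last 300 bases of *HSP17.6II*. The same holds for *HSP17.4* and *HSP17.6C* (159 bases, 84.3%) and less closely for *HSP18.2* and *HSP17.4* (107 bases, 76.6%) and for AT2G29500 and AT1G59860 (86 bases, 81.4%). Whether this likeness affected the counting of their reads was not tested.

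*HSP23.5*, whose protein works in the mitochondrion (chromosome 5, 20891163 to 20892416, plus strand, 2 exons), had the highest mean CPM of the 10 genes at 28 °C in every tissue and genotype. At 22 °C it ranked behind AT2G29500, and in the *hy5-215* root also behind *HSP18.2* (4.91 CPM). In the shoot of Col-0 it had 21, 25 and 18 counts at 22 °C and 43, 78 and 71 at 28 °C. In the shoot of *hy5-215* it had 8, 15 and 13 counts at 22 °C and 54, 63 and 47 at 28 °C. No shoot library overlapped between temperatures, and the *hy5-215* shoot at 28 °C was the tightest group, at 22.8 ± 0.121 CPM (SD, n = 3). In the root of Col-0 the counts were 4, 13 and 5 at 22 °C and 103, 149 and 176 at 28 °C. In the root of *hy5-215* they were 14, 11 and 7 at 22 °C and 234, 210 and 140 at 28 °C, where the last library was also the shallowest of its group. The root thus held the lowest mean levels at 22 °C, 3.91 ± 2.36 CPM for the WT and 3.55 ± 1.44 CPM for *hy5-215*, and the highest at 28 °C, 45.2 ± 10.9 and 56.2 ± 3.97 CPM (SD, n = 3). At 22 °C both root groups overlapped with the *hy5-215* shoot at 4.85 ± 0.825 CPM (SD, n = 3). *HSP23.5* was a DEG in all 4 comparisons, with log2 fold changes of 1.62 in the Col-0 shoot (SE 0.23, edgeR adjusted p = 9.92e-06), 2.21 in the *hy5-215* shoot (SE 0.25, edgeR adjusted p = 6.91e-07), 3.52 in the Col-0 root (SE 0.32, edgeR adjusted p = 8.93e-07) and 4.00 in the *hy5-215* root (SE 0.23, edgeR adjusted p = 1.30e-14). Without replicate 2 of the Col-0 root at 22 °C, the library with 13 counts, the Col-0 root value was 4.16.

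*HSP23.6*, the second mitochondrial gene (chromosome 4, 12916926 to 12918110, plus strand, 2 exons), was at or near 0 at 22 °C everywhere. The Col-0 shoot had no count at 22 °C and 1, 4 and 7 at 28 °C, at least 1.35-fold higher, but 0.847 times the level of 3 counts per library without replicate 3 at 28 °C, the library with 7 counts. The *hy5-215* shoot had 1, 0 and 0 counts at 22 °C and 9, 3 and 4 at 28 °C, a ratio of 16.3 (95% counting interval 2.53 to 683). These counts were separate but small. The Col-0 root had no count at 22 °C and 6, 8 and 36 at 28 °C, at least 3.22-fold higher, and at least 1.36-fold without replicate 3, which held most of the counts. The *hy5-215* root had 1, 0 and 2 counts at 22 °C and 37, 21 and 23 at 28 °C, and the ratio was 24.1 (95% counting interval 7.95 to 119, edgeR adjusted p = 8.53e-06). Only this last comparison entered the filtered test, and it was called.

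*HSP22* and *HSP21* stayed near the limit of counting at both temperatures. *HSP22*, of the endoplasmic reticulum (chromosome 4, 6370338 to 6371372, plus strand, 1 exon), had 1, 3 and 1 counts in the Col-0 shoot at 28 °C, 0, 1 and 2 in the *hy5-215* shoot and 1, 1 and 2 in the Col-0 root at 28 °C. It was 0 in the *hy5-215* root at 28 °C, and at 22 °C it had a single count in 1 library, replicate 1 of the *hy5-215* root. *HSP21*, which protects the chloroplast under heat (chromosome 4, 13818825 to 13819971, minus strand, 2 exons), had 4 counts in 24 libraries. With every group of both genes at 3 counts or fewer per library, a response was not detectable at this depth and no fold is given.

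**Figure D3:**
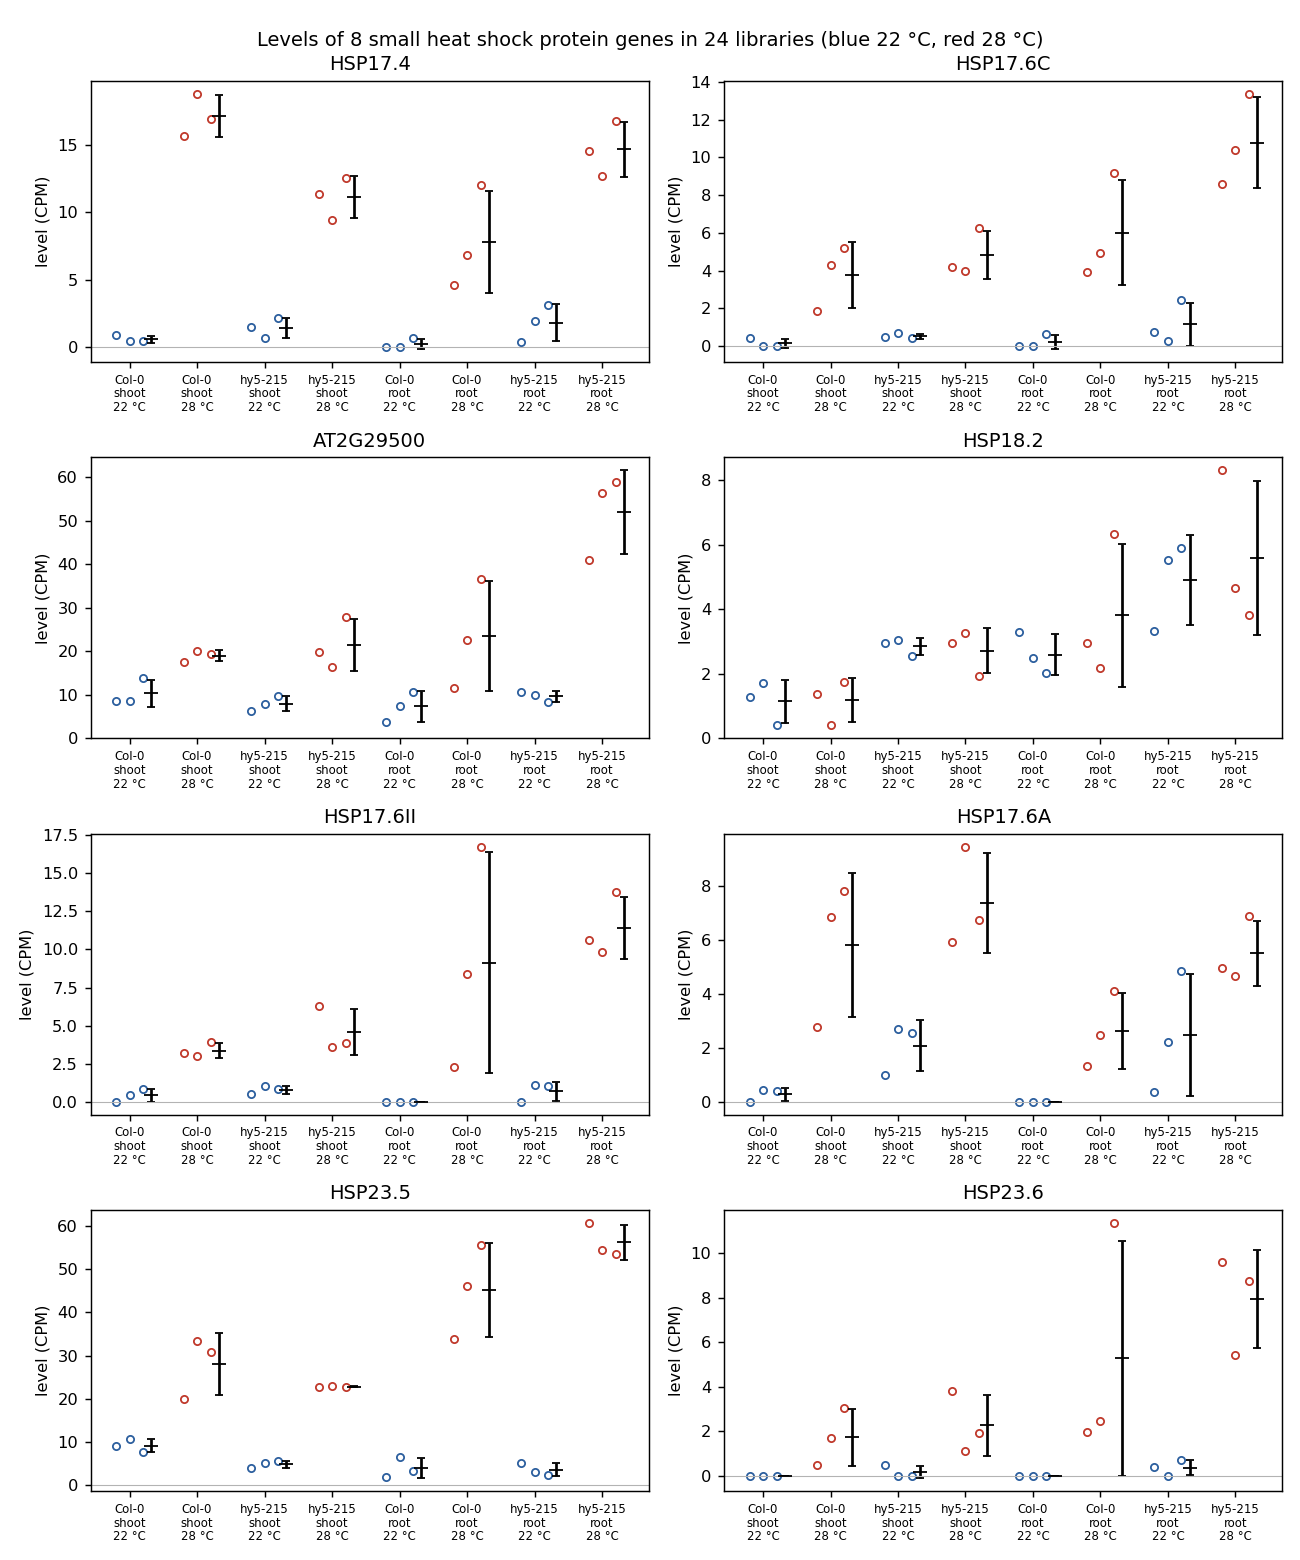
Level in CPM on the y axis of the 8 genes that rose above the floor, in each of the 8 groups on the x axis, with an open circle for each library (blue at 22 °C, red at 28 °C) and a bar for the mean and SD of 3. The red circles lie above the blue ones in most panels, but in that of *HSP18.2* they mix, and in the Col-0 root at 28 °C replicate 3, the rightmost circle, is the highest in each panel.

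Over the members, the filter on low counts left 3 in the Col-0 shoot, 4 in the *hy5-215* shoot, 4 in the Col-0 root and 8 in the *hy5-215* root. A member that passed it only through its level at 28 °C had to differ, so these counts describe the members and are not evidence of their direction. Higher at 28 °C were 2 of 3 members tested in the Col-0 shoot, where 2.15% of all genes tested were DEGs in that direction. The share was 4 of 4 in the *hy5-215* shoot against 1.77%, 4 of 4 in the Col-0 root against 0.946%, and 6 of 8 in the *hy5-215* root against 1.11%. DEGs lower at 28 °C made up 3.15%, 1.82%, 1.49% and 0.626% of all genes tested, in the same order, and no member was among them. By the unadjusted p under 0.05, 0 members were lower, and DESeq2 called 2, 4, 4 and 5 members higher, giving no adjusted p for *HSP23.6* in the *hy5-215* root. All 19 fitted changes were positive. Leaving out single libraries gave 2 to 4 members in the Col-0 shoot, 3 to 5 in the *hy5-215* shoot, 2 to 5 in the Col-0 root and 6 to 7 in the *hy5-215* root. The 4 of the Col-0 shoot came without replicate 3 at 22 °C, and the 2 of the Col-0 root without replicate 3 at 28 °C.

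Without a filter on low counts, 6 of 10 members were DEGs higher at 28 °C in the Col-0 shoot (2.04% of all genes), 7 of 9 in the *hy5-215* shoot (1.55%), 7 of 9 in the Col-0 root (0.994%) and 6 of 10 in the *hy5-215* root (0.931%). Leaving out a library from these unfiltered fits gave 4 to 6, 6 to 7, 6 to 7 and 6 to 7 members. By plain separation of the libraries, every CPM at 28 °C above every CPM at 22 °C, 8 of 10 members were higher in the Col-0 shoot, where 15.0% of genes were. Counts by this rule were 7 of 10 in the *hy5-215* shoot (12.3%), 8 of 10 in the Col-0 root (9.96%) and 6 of 10 in the *hy5-215* root (9.67%). In the Col-0 shoot and the Col-0 root 1 of the 8 was *HSP22*, which was at the floor at both temperatures.

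**Figure D4:**
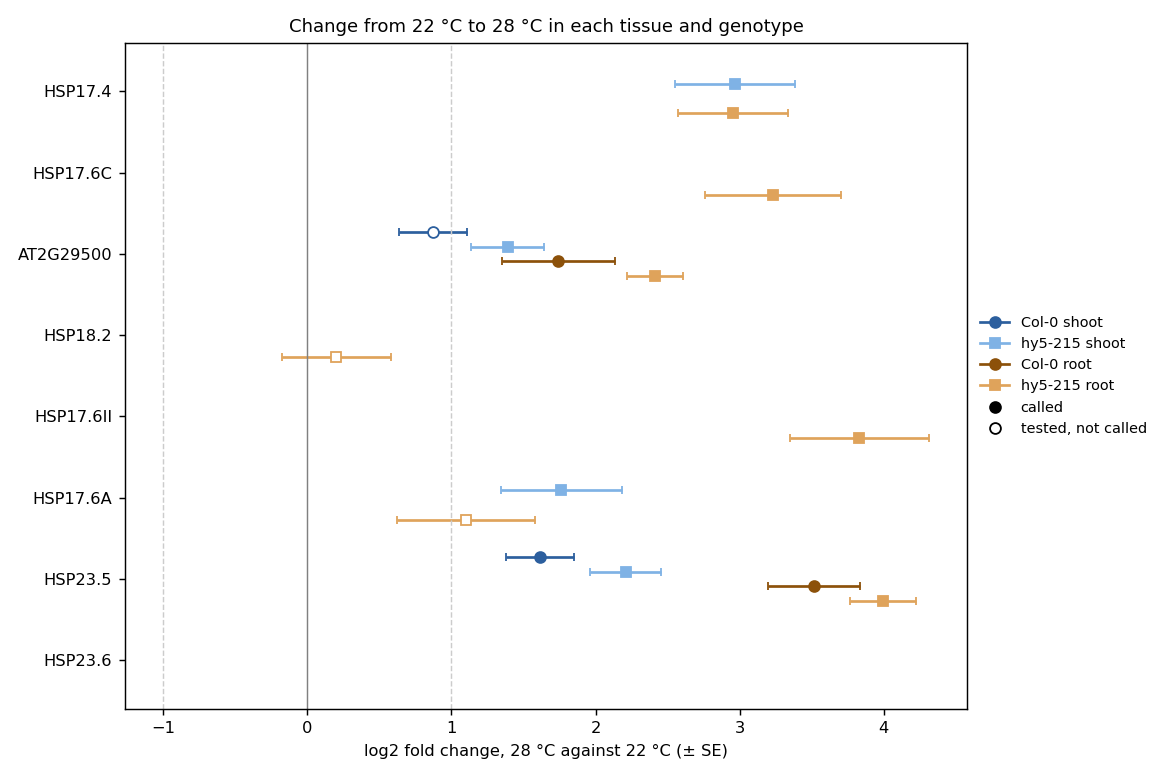
Log2 fold change from 22 °C to 28 °C on the x axis with its SE, for each gene and each tissue and genotype, filled where the gene was a DEG and open where it was tested but not called. Values against a group at the floor are not drawn, so *HSP23.6* has no point, and *HSP23.5* runs from 1.62 in the Col-0 shoot to 4.00 in the *hy5-215* root.

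Whether the response itself differed between the tissues was tested by the tissue by temperature interaction, called by the adjusted p alone. *HSP23.5* responded more in the root, by 1.90 on the log2 scale in Col-0 (SE 0.45, edgeR adjusted p = 0.0156) and by 1.83 in *hy5-215* (SE 0.39, edgeR adjusted p = 0.00217). It was the 1 member called of 5 tested in Col-0, where 2.78% of genes were called, and the 1 of 8 in *hy5-215*, where 3.71% were. In Col-0 the call was lost without replicate 2 of the shoot at 22 °C (1.82, adjusted p = 0.0548) and without replicate 1 of the root at 22 °C (1.51, adjusted p = 0.0733), and the value was 2.54 without replicate 2 of the root at 22 °C. In *hy5-215* it stayed between 1.64 and 2.12 whichever library was left out. AT2G29500 gave 0.88 in Col-0 (SE 0.50, edgeR adjusted p = 0.432) and 1.07 in *hy5-215* (SE 0.34, edgeR adjusted p = 0.0668). The *hy5-215* value passed without replicate 3 of the shoot at 28 °C (1.28, adjusted p = 0.0213) and without replicate 1 of the root at 28 °C (1.21, adjusted p = 0.0344). For *HSP18.2* and *HSP17.6A* in *hy5-215* the values were 0.29 (SE 0.64, edgeR adjusted p = 0.910) and −0.63 (SE 0.70, edgeR adjusted p = 0.779). In the Col-0 interaction 6 of the 10 shoot markers were called lower and 0 higher (median −0.84), and in that of *hy5-215* 0 were lower and 2 higher (median 0.43). Their part in the *HSP23.5* values was not tested.

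Between the tissues at one temperature, a large part of all genes differed, so a call there is common. At 22 °C, 1 of 2 members tested differed between root and shoot in Col-0 (41.5% of all genes), and 0 of 3 in *hy5-215* (41.6%), where 0 members had an unadjusted p under 0.05 and DESeq2 called 0. The member called was *HSP23.5*, lower in the Col-0 root by −1.18 on the log2 scale (SE 0.41, edgeR adjusted p = 0.0145). That call was lost without replicate 2 of the shoot (−1.08, adjusted p = 0.0638), without replicate 1 of the root (−0.81, adjusted p = 0.106) and when scaled by library size alone (−0.72, adjusted p = 0.127), and the value was −1.82 without replicate 2 of the root. In *hy5-215* at 22 °C *HSP23.5* was at −0.53 (SE 0.40, edgeR adjusted p = 0.251). TMM scaling shifted all root against shoot values by −0.48 and −0.51 in Col-0 and by −0.69 and −0.66 in *hy5-215*, at 22 °C and 28 °C, relative to library size alone.

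At 28 °C the *hy5-215* root stood above the shoot for 6 of 8 members. Of all genes tested, 17.2% were called higher in the root and 39.9% in either direction. Of the 6, *HSP17.6C*, *HSP17.6II*, *HSP18.2* and *HSP23.6* reached the filter level in all 3 libraries of a group only in the root. Members that passed the filter only through the root were likely to be higher there, so this count is not evidence of their direction. The mitochondrial genes *HSP23.5* (1.28, SE 0.15, edgeR adjusted p = 1.71e-09) and *HSP23.6* (1.77, SE 0.43, edgeR adjusted p = 0.000523) were among the 6. *HSP23.6* was at 2.36 without replicate 1 of the shoot, the shoot library with the most counts of it. The class I genes AT2G29500 (1.27, SE 0.18, edgeR adjusted p = 8.92e-08), *HSP17.6C* (1.12, SE 0.33, edgeR adjusted p = 0.00324) and *HSP18.2* (1.01, SE 0.43, edgeR adjusted p = 0.0376) and the class II gene *HSP17.6II* (1.26, SE 0.33, edgeR adjusted p = 0.00102) were the others. *HSP17.6C* fell under 2-fold without replicate 2 of the shoot (0.99) or replicate 3 of the root (0.96). *HSP18.2* lost its call under DESeq2 (adjusted p = 0.112), with a replicate block (0.97, adjusted p = 0.0632) and in 4 of 6 fits that left out a library. The other 2 members tested were *HSP17.4* at 0.37 (SE 0.25, edgeR adjusted p = 0.190) and *HSP17.6A* at −0.50 (SE 0.34, edgeR adjusted p = 0.208). Scaled by library size alone, *HSP17.4* was a DEG at 1.03 (adjusted p = 0.000279) and *HSP17.6A* turned to 0.16.

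In Col-0 at 28 °C only 2 of 5 members tested were called between the tissues (42.3% of all genes). Both were lower in the root, where 22.8% of all genes were called lower. They were *HSP17.4* at −1.09 (SE 0.29, edgeR adjusted p = 0.00241) and *HSP17.6A* at −1.09 (SE 0.45, edgeR adjusted p = 0.0401). *HSP17.4* fell under 2-fold without replicate 1 (−0.83) or replicate 2 (−0.99) of the root. *HSP17.6A* lost its call under DESeq2 (adjusted p = 0.0946) and in 4 of 6 fits that left out a library (adjusted p from 0.108 to 0.198). With library size alone neither was called, at −0.57 (adjusted p = 0.0811) and −0.58 (adjusted p = 0.255). *HSP23.5* was higher in the root by 0.73 (SE 0.20, edgeR adjusted p = 0.00252), under 2-fold, and by 1.24 with library size alone (adjusted p = 1.14e-05). *HSP17.6C* at 0.70 (SE 0.42, edgeR adjusted p = 0.154) and AT2G29500 at 0.35 (SE 0.28, edgeR adjusted p = 0.281) did not pass. Library size alone made *HSP17.6C* a DEG at 1.21 (adjusted p = 0.0147). Without a filter 5 of 10 members were called (36.7% of all genes), as *HSP17.6II* (1.47, adjusted p = 0.00203), *HSP18.2* (1.70, adjusted p = 0.0192) and *HSP23.6* (1.60, adjusted p = 0.0126) were then also higher in the root. None of these 3 calls held without replicate 3 of the root (0.70, adjusted p = 0.225, 1.12, adjusted p = 0.228 and 0.37, adjusted p = 0.689) or without replicate 1 of the shoot (adjusted p = 0.120, 0.0751 and 0.265), and that of *HSP18.2* was also lost without replicate 2 of the shoot (adjusted p = 0.114).

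**Figure D5:**
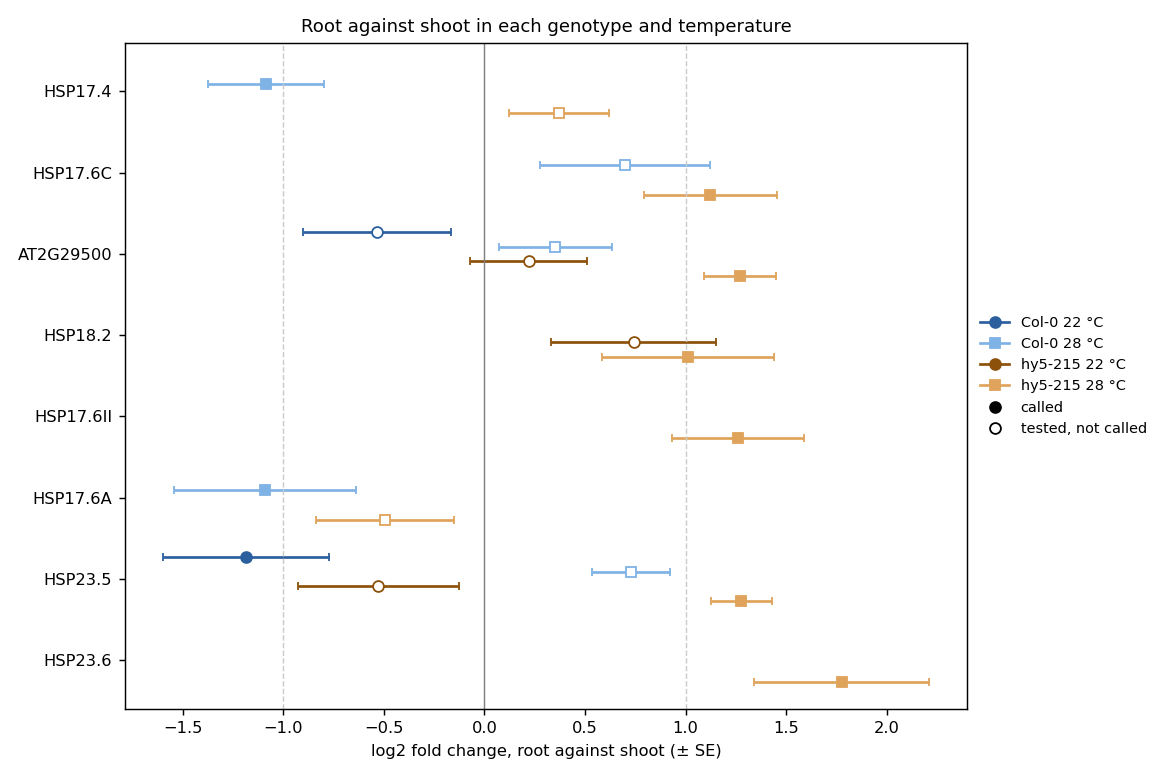
Log2 fold change of root against shoot on the x axis with its SE, for each gene, genotype and temperature, filled where the gene was a DEG. At 28 °C the *hy5-215* points of 6 genes lie at 1.01 or above, while *HSP17.4* and *HSP17.6A* of Col-0 both lie at −1.09.

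The contribution of HY5 was examined by comparing *hy5-215* with Col-0 in each tissue and temperature. In the shoot no member was called, 0 of 2 tested at 22 °C (1.73% of all genes) and 0 of 4 at 28 °C (1.82%). At an unadjusted p under 0.05 no share of all genes is given, here or below, so counts of members at it have no background. There was 1 such member at each temperature, and DESeq2 called 0 at either. The one at 22 °C was *HSP23.5*, at −0.90 in *hy5-215* (SE 0.33, edgeR adjusted p = 0.0814), with 8, 15 and 13 counts against 21, 25 and 18 and no overlap in CPM, as in 9.57% of all genes with a count. The one at 28 °C was *HSP17.4*, at −0.63 (SE 0.23, edgeR adjusted p = 0.114), with 27, 26 and 26 counts against 34, 44 and 39, also without overlap, as in 9.36% of genes. Neither difference held after adjustment. *HSP23.5* at 28 °C was at −0.30 (SE 0.19, edgeR adjusted p = 0.448). *HSP17.6A* (0.35, SE 0.37, edgeR adjusted p = 0.676) and AT2G29500 (−0.38, SE 0.29, edgeR adjusted p = 0.514 at 22 °C and 0.15, SE 0.21, edgeR adjusted p = 0.772 at 28 °C) were within their spread.

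In the root at 22 °C the test left 1 member, AT2G29500, at 0.45 (SE 0.36, edgeR adjusted p = 0.507), so 0 of 1 were called (5.78% of all genes), with 0 at an unadjusted p under 0.05 and 0 by DESeq2. At 28 °C 1 of 8 members was called (4.84% of all genes), AT2G29500, higher in *hy5-215* by 1.14 (SE 0.23, edgeR adjusted p = 0.000888). All 8 fitted values were positive and 5 had an unadjusted p under 0.05. *HSP17.6A*, *HSP17.6II*, *HSP18.2* and *HSP23.6* reached the filter level in all 3 libraries of a group only in *hy5-215*. Members that passed only through *hy5-215* were likely to be higher there, so the shared sign is not evidence of their direction. *HSP17.4*, at 0.91 (SE 0.28, edgeR adjusted p = 0.0343), passed the adjusted p but not 2-fold. *HSP17.6A* (1.03, SE 0.43, edgeR adjusted p = 0.128), *HSP17.6C* (0.82, SE 0.32, edgeR adjusted p = 0.0956) and *HSP23.5* (0.33, SE 0.15, edgeR adjusted p = 0.182) did not pass, nor did *HSP18.2* (0.59, SE 0.42), *HSP23.6* (0.59, SE 0.44) and *HSP17.6II* (0.31, SE 0.37), with edgeR adjusted p from 0.433 to 0.681. This comparison turned on single libraries and on the tool. DESeq2 called 0 members (adjusted p = 0.116 for AT2G29500). Without replicate 1 of the Col-0 root at 28 °C, the lowest of its group, AT2G29500 was at 0.82 (adjusted p = 0.00308) and 0 members were called. Without replicate 3, the highest, 6 members were called, *HSP17.4* at 1.34, *HSP17.6A* at 1.49, *HSP17.6C* at 1.25, *HSP17.6II* at 1.06, *HSP23.6* at 1.81 and AT2G29500. Over all genes, leaving out a library called 692 to 937, against 800 in the main fit.

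*HSP17.6A* and *HSP18.2* had more counts in *hy5-215* than in Col-0 at 22 °C, in numbers below the filter. *HSP17.6A* in the *hy5-215* shoot (2, 8 and 6 counts against 0, 1 and 1 in Col-0) had a ratio of 7.66 (95% counting interval 1.80 to 68.7), and in an unfiltered edgeR fit its adjusted p was 0.0832. In the root it had 1, 8 and 14 counts against none in any Col-0 library, at least 1.51-fold higher, and the unfiltered edgeR adjusted p was 0.00523, the 1 of 10 members called in that fit (5.13% of all genes). Without replicate 3 of *hy5-215*, the library with 14 counts, its level was 0.786 times that of 3 counts per library and the adjusted p was 0.183. *HSP18.2* was higher without overlap in *hy5-215* in the shoot at 22 °C, with a ratio of 2.51 (95% counting interval 1.07 to 6.56), in the shoot at 28 °C, with 2.37 (95% counting interval 0.998 to 6.21), and in the root at 22 °C, with 1.87 (95% counting interval 1.03 to 3.61). Separation in that direction was found in 10.4% and 9.66% of genes in the shoot at 22 °C and 28 °C and in 2746 of 22948 genes in the root at 22 °C. None of these passed the unfiltered edgeR fit (adjusted p = 0.327, 0.408 and 0.351). Col-0 root libraries at 22 °C were the shallowest, which limits what a count of 0 there can show.

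The temperature response was then compared between the genotypes by their interaction. In the shoot 0 of 4 members tested were called (1.03% of all genes), with 2 at an unadjusted p under 0.05 and 0 by DESeq2. *HSP23.5* gave 0.58 (SE 0.36, edgeR adjusted p = 0.605) and AT2G29500 0.51 (SE 0.36, edgeR adjusted p = 0.664). The pair with the unadjusted p under 0.05 were *HSP17.4* and *HSP17.6A* (edgeR adjusted p = 0.351 and 0.310), whose Col-0 groups at 22 °C were at the floor. In the root 0 of 8 were called (1.41% of all genes), with 1 at an unadjusted p under 0.05, *HSP17.6A*, and 0 by DESeq2. *HSP23.5* gave 0.50 (SE 0.48, edgeR adjusted p = 0.802), AT2G29500 0.69 (SE 0.47, edgeR adjusted p = 0.677) and *HSP18.2* −0.30 (SE 0.67, edgeR adjusted p = 0.938). These SEs leave room for differences in response between the genotypes that the test could not detect.

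The other genes of the pathway were counted in 3 lists. Of 9 further genes with an alpha-crystallin domain, 3 of 7 tested were DEGs higher at 28 °C in the Col-0 shoot (median log2 fold change 1.06), 2 of 6 in the *hy5-215* shoot (0.76), 3 of 5 in the Col-0 root (1.40) and 5 of 6 in the *hy5-215* root (2.01), with the median of all genes tested at 0.01 or less. For this and the other lists, 2.15%, 1.77%, 0.946% and 1.11% of all genes tested were DEGs higher at 28 °C, in the same order. Those lower made up 3.15%, 1.82%, 1.49% and 0.626%. AT1G07400 rose in all 4 comparisons, by 1.59, 1.76, 3.22 and 2.65, and AT2G19310 by 1.49, 1.32, 1.57 and 2.06. These 9 genes summed to 168 CPM at 22 °C and 327 CPM at 28 °C in the Col-0 shoot but to 34.8 and 94.3 CPM in the Col-0 root.

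Of 12 chaperones that refold or disaggregate proteins, 5 of 10, 4 of 10, 4 of 10 and 5 of 11 were DEGs higher at 28 °C in the same order, with medians of 1.34, 0.73, 0.92 and 0.85, and none was lower. The heat-inducible *HSP70* (AT3G12580) rose by 2.69, 2.45, 2.36 and 2.82 and *HSP90.1* by 2.32, 2.37, 3.16 and 3.66, whereas the constitutive *HSC70-1* was at 0.16, 0.05, 0.09 and 0.17. *HSP101*, the disaggregase, was a DEG in the Col-0 shoot at 1.69 and at 0.82, 0.97 and 0.83 in the other groups. Of 15 heat shock factors and modulators, 2 of 13, 2 of 12, 2 of 13 and 3 of 13 were higher and 0, 1, 1 and 1 lower. The coactivator gene *MBF1C* rose by 2.35, 2.02, 1.35 and 1.28, and *HSFA2*, a heat-induced factor that drives small heat shock protein genes, rose in the *hy5-215* root by 1.87 (edgeR adjusted p = 0.00952). The genes that fell were *HSFA7A*, by 1.22 in the *hy5-215* shoot and by 1.52 in the *hy5-215* root, and *HSFA1E*, by 1.56 in the Col-0 root. No gene of these 3 lists was called between *hy5-215* and Col-0 in either tissue at either temperature. Of all genes tested, 1.73% and 1.82% were called there in the shoot and 5.78% and 4.84% in the root, at 22 °C and 28 °C.

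Across all 24 libraries, the genes most like the members were sought by the Pearson correlation with the mean log2 CPM of the 8 members with a level, among 14154 genes. They were *VHA-E3*, a subunit of the vacuolar proton pump (r = 0.918), *HSP90.1* (0.901), *HSP70* (0.885), AT3G48140 (0.880) and AT4G32240 (0.872). The libraries share their groups, so this describes the pattern over 24 libraries and no p is given. *VHA-E3* stood at 32.8 CPM in the Col-0 shoot at 22 °C and 94.9 CPM at 28 °C, and at 63.5 and 131 CPM in the *hy5-215* root.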

How the data were processed

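The data were 3′Tag-Seq read counts per gene in 24 libraries. Per the labels and the study's methods, the authors checked reads with FastQC, aligned them to TAIR10 with HISAT2, counted them with HTSeq and deposited whole-number counts without normalization. Tool versions and the use of strand in counting are not given in the sources used here. Groups came from the sample titles, because the genotype entry of the labels reads WT for all shoot and *hy5* for all root samples. The labels and the study's text also differ on seedling age and, in a design text, on 24 h in place of 4 h.

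Counts were fitted with edgeR 4.0.16 in R 4.3.3 (TMM, filterByExpr at its defaults of 10 counts per library and 15 in total, quasi-likelihood F-test, Benjamini-Hochberg over all genes tested), on 6 libraries per comparison and 12 per interaction. The SE is the absolute log2 fold change divided by the square root of F, and is approximate. The cutoffs for DEGs, 2-fold and an adjusted p of 0.05, follow the study's methods, and interactions had no fold cutoff. Groups with 3 counts or fewer in every library were at the floor. Alternatives were DESeq2 1.42.0, no filter, library size alone, a replicate block, the adjusted p with no fold cutoff, and each library left out in turn. Leaving out libraries from the unfiltered fits was added after seeing the data. Only the main edgeR fit, with its filter and TMM, was run on simulated data, and no result of that run is given here. The alternatives were not run on such data. The 24 pairs of replicates differed beyond counting noise, with a chi-square per degree of freedom from 1.45 to 4.25, so none was a copy. Annotation came from RefSeq's TAIR10.1, which matched 32548 of 33977 identifiers, and copies of 3′ ends were searched with blastn 2.17.0+. All 10 members are named. Other genes are *HY5*, genes of the lists and the 5 with the highest correlation. The members and lists were chosen with earlier results of these data known.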

Additional observations from a re-analysis of the deposited data

Results flagged for a closer look

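The temperature response of *HSP23.5* differed between root and shoot by a test of the difference itself, in Col-0 by 1.90 on the log2 scale (edgeR adjusted p = 0.0156) and in *hy5-215* by 1.83 (edgeR adjusted p = 0.00217), larger in the root in both. The Col-0 call did not hold without replicate 2 of the shoot at 22 °C (1.82, edgeR adjusted p = 0.0548). It was also lost without replicate 1 of the root at 22 °C (1.51, edgeR adjusted p = 0.0733). In *hy5-215* the call held whichever library was left out (highest edgeR adjusted p = 0.0175). With groups of 3 replicates, no test of a single outlying library was made.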

How the results depend on the processing

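The number of members called at 28 °C against 22 °C rose without a filter on low counts to 6 in the Col-0 shoot and to 7 in the *hy5-215* shoot and the Col-0 root, because more members were then tested. Leaving out each library gave 2 to 4 in the Col-0 shoot, 3 to 5 in the *hy5-215* shoot, 2 to 5 in the Col-0 root and 6 to 7 in the *hy5-215* root. Over all genes, 751 to 1095, 506 to 620, 250 to 424 and 222 to 359 were then called in either direction, in the same order. Between genotypes in the root at 28 °C, DESeq2 called 0, no fold cutoff 2, and leaving out a library 0 to 6, and at 22 °C no filter gave 1. Over all genes the root comparison at 28 °C called 800 of 16514, and 692 to 937 with a library left out. Between root and shoot, library size alone gave 0 in Col-0 and 1 in *hy5-215* at 22 °C, leaving out a library gave 0 to 1 in Col-0 at 22 °C and 0 to 3 at 28 °C, and at 28 °C in Col-0 DESeq2 gave 1 and no filter 5. Without a filter and without single libraries, an alternative chosen after seeing the data, this 5 became 2 to 4, and the 1 between genotypes in the root at 22 °C became 0 to 1. The tissue by temperature interaction gave 0 to 1 in Col-0 when a library was left out, and in *hy5-215* 1 to 2, with 2 without a filter. With a library left out, this interaction called 326 to 523 of all genes in Col-0 and 522 to 725 in *hy5-215*. Between root and shoot in Col-0 the ranges over all genes were 6749 to 7498 at 22 °C and 7249 to 7520 at 28 °C.

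Values that changed sign, none past the threshold in either form, were those of AT2G29500 between tissues in Col-0 at 28 °C (−0.11 to 0.67 over the libraries left out, lowest without replicate 3 of the root) and between genotypes in the shoot at 28 °C (−0.076 to 0.32 over the libraries left out), *HSP23.5* between tissues in *hy5-215* at 22 °C (0.15 with library size alone), *HSP17.6A* there at 28 °C (0.16 with library size alone), *HSP18.2* in the *hy5-215* root (−0.21 to 0.38 over the libraries left out) and *HSP17.6II* between genotypes in the root at 28 °C (−0.14 to 1.06, where 1.06 passed). In the interactions they were *HSP23.5* (−0.16 to 0.88) and *HSP18.2* (−0.71 to 0.25) for genotype in the root, and *HSP17.4* (−0.0057 with library size alone, −0.43 to 0.55 over the libraries left out), *HSP17.6A* (−1.11 to 0.18) and *HSP18.2* (−0.13 to 0.47) for tissue in *hy5-215*. Beyond the scalings and libraries named, the cause was not tested.

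Between the temperatures, same-numbered libraries of a tissue and genotype showed little joint deviation (12 correlations from −0.0902 to 0.107). The own number was still the best match for every replicate of the Col-0 shoot and the *hy5-215* root. It was so for replicate 2 only in the *hy5-215* shoot, and for no replicate of the Col-0 root. Whether same-numbered shoot and root libraries came from the same seedlings was not tested, and the main fits did not pair them. With a replicate block the members called were 2, 4, 4 and 6 for temperature, and the block ended 1 call of a member, *HSP18.2* between tissues in *hy5-215* at 28 °C (0.97, 5 members called). Over all genes, the shoot genotype by temperature interaction called 169, 266 with the block, 106 by DESeq2 and 366 without a filter, and 60 to 398 with a library left out. The root interaction called 240, 413 without a filter and 142 to 251 with a library left out. Depth limits the low members most, as 1 count was 0.259 to 0.671 CPM.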
